A study of Homo sapiens and Homo sapiens
Mus with 12 samples.

Results

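A set of 10 genes of WNT signaling was followed through RNA-seq of a bladder cancer cell line after knockdown of CDH11, in culture and in xenograft tumors. They are the ligands WNT7B, WNT7A, WNT5A and WNT5B, the frizzled receptors FZD2, FZD6 and FZD7, the co-receptors LRP5 and LRP6, and PORCN, the enzyme that attaches the lipid of WNT ligands. The members were taken by gene symbol, and all 10 were found among 21479 genes of the cultured cell table and among 26813 human genes of the tumor table. After the filter on low counts, 7 of the 10 were tested in cultured cells and 6 in tumors.

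UM-UC-3 is an established human bladder cancer cell line. The hairpins were delivered by GIPZ lentivirus, whose GFP reporter served to select transduced cells by flow cytometry. The groups were shCtrl (a nonsilencing shRNA, labelled WT), sh#1 and sh#2 (different shRNAs against CDH11, labelled CDH11 knockdown), so that controls also carried the vector and GFP. CDH11 is cadherin-11, also called OB-cadherin, which joins neighboring cells of mesenchymal type. Cultured cells were sampled after 24 h in 3 libraries per group. For the tumors, cells in Matrigel were injected under the skin of 5-week-old nude mice, and tissue was sampled 4 weeks later, with 5 tumors per group. Each hairpin was represented by a single sorted cell population in these descriptions, and nothing in the labels said that the cultured libraries came from separate cultures. The p-values therefore measure the spread between these libraries, which may be technical. Nude mice lack mature T cells, so the tumors formed in a host without them.

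WNT ligands are secreted glycoproteins that receive a lipid from PORCN in the endoplasmic reticulum, and the lipid is needed for their release and for receptor binding. Frizzled proteins bind this lipid and, together with LRP5 or LRP6, stabilize β-catenin, which then works with TCF/LEF factors in the nucleus. WNT7A and WNT7B are close relatives mostly known for the β-catenin branch, while WNT5A and WNT5B are mostly known for β-catenin-independent signaling through ROR, RYK and the planar polarity proteins. WNT7B is known as a ligand made by the bladder epithelium.

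The part of the ligands that PORCN modifies is shown because it links the ligands to the enzyme among these genes. In the 4 ligands, the codon of the acylated serine was located in the reference coding sequence by the conserved residues around it. It is printed below in capitals within 27 bases of coding sequence, read 5′ to 3′ on the strand of the gene, from hg38 with the GENCODE annotation.
WNT7B: tgccacggcgtgTCTggctcctgcacc
WNT7A: tgccacggcgtgTCAggctcgtgcacc
WNT5B: tgccacggcgtcTCGgggtcctgcagc
WNT5A: tgccatggggtgTCCggctcatgtagc
The WNT7B stretch is in exon 4, at chr22:45923276-45923302 on the minus strand, and the codon is number 206. The WNT7A stretch is in exon 4, at chr3:13819364-13819390 on the minus strand, the WNT5B stretch in exon 5, at chr12:1645827-1645853 on the plus strand, and the WNT5A stretch in exon 5, at chr3:55470491-55470517 on the minus strand. WNT7B shared 25 of the 27 bases with WNT7A, 23 with WNT5B and 21 with WNT5A. Each ligand used a different serine codon.

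The study also measured WNT7B by RT-PCR, and the primers are given because they place that assay on the gene. Both lie in the coding sequence of exon 3 of WNT7B (ENSG00000188064, chromosome 22, 45920366 to 45977162, minus strand), and the product is 155 bases long.
WNT7B forward: gaagcagggctactacaacca
WNT7B reverse: cggcctcattgttatgcaggt
The forward primer matched chr22:45931240-45931260 and the reverse primer chr22:45931106-45931126. Each matched the annotated transcripts of 1 gene. Primer and acylation sequences lie in neighboring exons, and the counts below are sums over the whole gene.

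Totals on genes were 2273182 to 2777019 counts in cultured libraries. In tumors they were 414849 to 1248977 human counts, with the lowest total in sh#1 tumor 1. The targeted gene itself was near the limit of detection in culture, where CDH11 had 2 to 4 counts in shCtrl, 0 to 1 in sh#1 and 0 to 2 in sh#2 libraries. In tumors CDH11 had 5 to 32 counts in shCtrl, 1 to 9 in sh#1 and 2 to 14 in sh#2, with overlapping groups. Of 15 markers of epithelium and urothelium, KRT8 (104.7 to 142.8 normalized CPM) and KRT18 (125.2 to 194.3) were high in culture, and EPCAM, CDH1, UPK1B and UPK3A were at 0 in every cultured library. KRT7 (1.91 to 4.93), GATA3 (0.705 to 2.46) and PPARG (0.381 to 3.82) were low in every library, UPK1A was at 0 to 9.33, and the other 5 were at 0 to 1.40. Of the mesenchymal markers, VIM was at 2140 to 4331, ZEB1 at 86.5 to 114.4 and CDH2 at 24.8 to 41.7. FN1 (2.46 to 13.15) and TWIST1 (2.11 to 7.48) were low. Mouse counts were 10.4% to 14.4% of a tumor library in shCtrl, 10.4% to 30% in sh#1 and 13% to 18.8% in sh#2.

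In cultured cells, 3 of the 7 members tested fell after CDH11 knockdown and none rose. They were the ligands WNT7B and WNT5B and the receptor FZD2. Both hairpins together (6 libraries) were compared with shCtrl by edgeR (quasi-likelihood), and p-values were adjusted over all 9859 genes tested by the method of Benjamini and Hochberg (q, threshold 0.05). In this comparison 8.32% of all genes were called lower and 9.12% higher. The median log2 fold change was -0.37 over the 7 members and 0.00 over all genes.

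WNT7B had 111, 94 and 105 counts in shCtrl, 44, 41 and 51 counts in sh#1 and 28, 36 and 17 counts in sh#2 cells. Divided by TMM-normalized library sizes (normalized CPM), these were 43.7, 38.5 and 40.0 in shCtrl, 18.0, 17.8 and 18.0 in sh#1, and 13.1, 17.2 and 8.28 in sh#2. Every knockdown library lay below every shCtrl library, and the sh#1 libraries were nearly identical while the sh#2 libraries spread. The share of all genes that separate in this way is not given here, for this or the other members. The group means were 40.8 ± 2.65 (SD, n = 3) in shCtrl, 17.9 ± 0.112 in sh#1 and 12.9 ± 4.47 in sh#2. The level was 2.62-fold lower in CDH11 knockdown, a log2 fold change of -1.39 (SE 0.18, q = 5.05e-05). Each hairpin alone gave the call, with -1.18 (SE 0.17, q = 1.40e-07) for sh#1 and -1.66 (SE 0.19, q = 9.85e-11) for sh#2. WNT7B was 0.48 higher on the log2 scale in sh#1 than in sh#2 (SE 0.22, 95% interval 0.06 to 0.90), and this difference between the hairpins did not pass the threshold (q = 0.0980). It did without sh#2 replicate 2, where it was 0.74 (q = 0.0267).

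WNT5B was the ligand with the most counts, 305, 295 and 331 in shCtrl, 184, 161 and 170 in sh#1 and 173, 153 and 144 in sh#2. The normalized CPM were 120.1, 121 and 126.1 in shCtrl, 75.4, 70.0 and 59.9 in sh#1, and 80.7, 73.1 and 70.1 in sh#2, so that the shCtrl libraries stood apart from all others. Its log2 fold change was -0.78 (SE 0.10, q = 4.80e-05), a 1.71-fold lower level. The values of the hairpins were close, -0.84 (SE 0.10, q = 7.72e-10) for sh#1 and -0.71 (SE 0.10, q = 4.57e-08) for sh#2. Their difference was -0.13 (95% interval -0.35 to 0.08, q = 0.406).

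WNT5A and WNT7A gave no call. WNT5A had 13, 27 and 20 counts in shCtrl, 15, 9 and 25 in sh#1 and 20, 14 and 15 in sh#2. The groups overlapped throughout, and the log2 fold change was -0.17 with a 95% interval of -0.75 to 0.42 (q = 0.745). WNT7A had 1 count in all shCtrl libraries together, 2 in sh#1 and 0 in sh#2 and was removed by the filter, so the close relative of WNT7B was at the limit of detection in these cells. A count of 0 still allows 3 counts per library, or 1.08 to 1.32 CPM at these totals.

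Among the receptors, FZD2 had 50, 37 and 45 counts in shCtrl, 23, 25 and 30 in sh#1 and 28, 18 and 23 in sh#2. Its normalized CPM were 19.7, 15.2 and 17.2 in shCtrl, 9.43, 10.9 and 10.6 in sh#1, and 13.1, 8.60 and 11.2 in sh#2. No knockdown library reached the lowest shCtrl library. The log2 fold change was -0.71 (SE 0.19, q = 0.0150), 1.63-fold lower, with -0.75 (SE 0.22, q = 0.00968) for sh#1 and -0.66 (SE 0.23, q = 0.0182) for sh#2. Without shCtrl replicate 1 or shCtrl replicate 3 the values were -0.61 and -0.71 and did not pass the threshold (q = 0.0922 and 0.0578). The hairpin calls were lost without shCtrl replicate 1, at -0.65 in sh#1 (q = 0.0559) and -0.56 in sh#2 (q = 0.0795), and that of sh#2 also without sh2 replicate 2 (-0.51, q = 0.116). By DESeq2 the values were -0.75 (q = 0.0759) and -0.66 (q = 0.0934). FZD7 had 1 to 6 counts in every library, and FZD6 had 0 in every library, so neither was tested.

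The co-receptors gave lower means without a call. LRP5 had 39, 35 and 41 counts in shCtrl, 33, 25 and 30 in sh#1 and 27, 24 and 26 in sh#2. After normalization every knockdown library was below the lowest shCtrl library (10.6 to 13.5 against 14.4 to 15.6 normalized CPM). The log2 fold change of LRP5 was -0.34 (SE 0.18, 95% interval -0.69 to 0.01, q = 0.200). LRP6 had 48, 32 and 42 counts in shCtrl, 35, 17 and 46 in sh#1 and 39, 19 and 17 in sh#2, with groups that overlapped, and its log2 fold change was -0.37 (SE 0.26, q = 0.351).

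PORCN differed between the hairpins. It had 20, 18 and 24 counts in shCtrl, 28, 19 and 30 in sh#1 and 44, 47 and 35 in sh#2. The normalized CPM were 7.87, 7.38 and 9.15 in shCtrl, 11.5, 8.26 and 10.6 in sh#1, and 20.5, 22.5 and 17.0 in sh#2. The sh#2 libraries lay above all others, and the sh#1 libraries overlapped with shCtrl. PORCN rose in sh#2, with a log2 fold change of 1.29 (SE 0.23, q = 9.96e-06), a 2.45-fold higher level. In sh#1 the value was 0.31 (SE 0.26, 95% interval -0.19 to 0.82, q = 0.420). The test between the hairpins gave -0.98 for sh#1 against sh#2 (SE 0.22, q = 0.000696). With both hairpins together PORCN was 0.86 higher and just missed the threshold (SE 0.30, q = 0.0585).

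By hairpin, 3 of 7 members fell in sh#1 and none rose, where 10.6% of all genes were called lower and 11.8% higher. In sh#2, 3 fell and 1 rose, where 18.8% were called lower and 19.5% higher. Between the hairpins, PORCN was the only member of the 7 called, lower in sh#1, in a comparison that called 13.5% of all genes lower and 11.2% higher in sh#1.

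**Figure D1:**
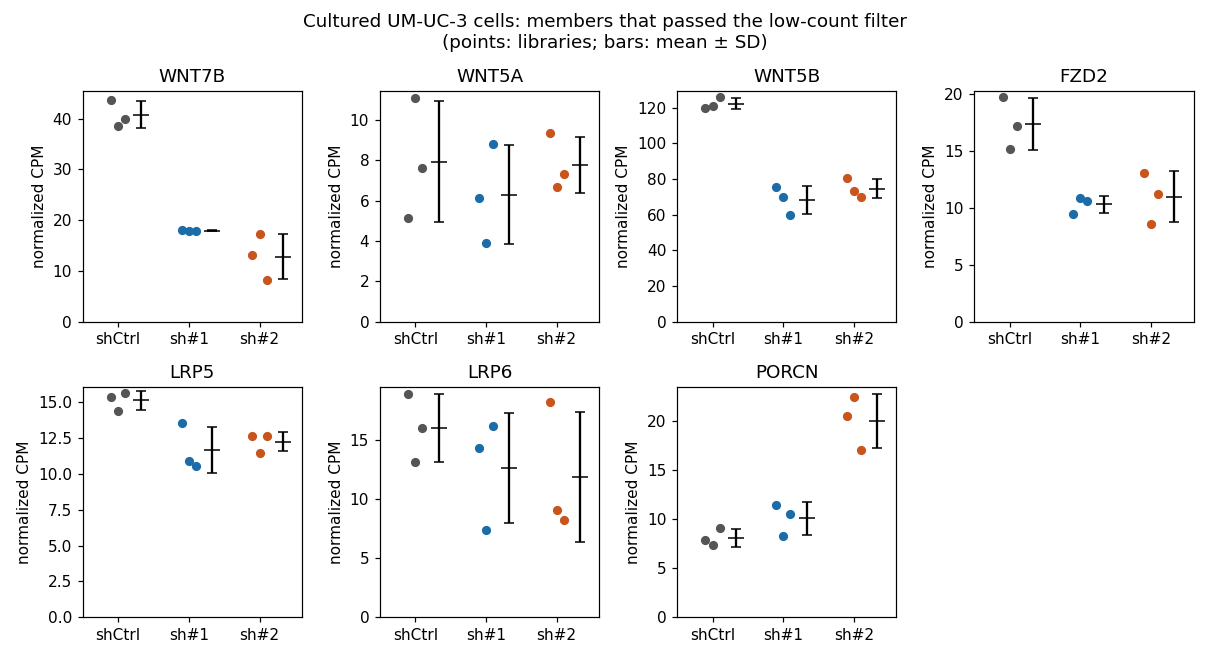
Normalized CPM (vertical axes, starting at 0) of the 7 members tested in cultured UM-UC-3 cells, by group on the horizontal axes. Points are libraries and bars are mean ± SD (n = 3). WNT7B, WNT5B, FZD2 and LRP5 show every knockdown library below every shCtrl library, though LRP5 was not called. The share of all genes that do so is not given. PORCN stands apart in sh#2.

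Levels of different genes were compared only per length of transcript, in the shCtrl cultured libraries. WNT5B was the most abundant member at 54.7 ± 1.45 CPM per kb (SD, n = 3), followed by WNT7B at 10.3 ± 0.672. FZD2 at 4.59 ± 0.598 and PORCN at 4.36 ± 0.488 did not differ beyond their spread. LRP5 followed at 2.92 ± 0.129. LRP6 at 1.56 ± 0.281 and WNT5A at 1.36 ± 0.512 were again within their spread, and FZD7 was at 0.431 ± 0.151. WNT7A was at 0.0318 ± 0.0551 and FZD6 at 0. In sh#2 cells PORCN, at 10.7 ± 1.47 CPM per kb, was above WNT7B, at 3.25 ± 1.13, the reverse of the order in shCtrl. These values assume 1 reference transcript per gene and are a description without a test.

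In xenograft tumors, none of the 6 members tested was called at the threshold of 0.1 in CDH11 knockdown (10 tumors) against shCtrl (5 tumors), a comparison in which edgeR called 1.51% of 9184 genes in either direction. DESeq2 also called 0. The share of all genes at an unadjusted p under 0.05 is not given, here or for the single hairpins. At that p there were 2 members, WNT7B and WNT5B. Their directions were opposite: WNT7B had lower and WNT5B higher values in knockdown tumors. The median log2 fold change was -0.07 over the members and 0.01 over all genes. In bulk tumor tissue, fewer cells that make a transcript and less of it per cell cannot be told apart.

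WNT7B had 49, 45, 47, 69 and 23 counts in the shCtrl tumors, 11, 37, 30, 27 and 32 in sh#1 and 19, 31, 31, 22 and 22 in sh#2. The normalized CPM were 39.3, 48.7, 53.6, 61.4 and 35.2 in shCtrl, 30.5, 41.8, 31.8, 29.4 and 32.3 in sh#1, and 27.0, 41.6, 29.7, 23.5 and 42.0 in sh#2. All knockdown tumors were below the shCtrl mean, but 1 sh#1 tumor and 2 sh#2 tumors were above the lowest shCtrl tumors. The means were 47.6 ± 10.6 (SD, n = 5) in shCtrl, 33.2 ± 4.97 in sh#1 and 32.8 ± 8.56 in sh#2. The log2 fold change was -0.55 (SE 0.16, 95% interval -0.87 to -0.24) by edgeR, with an unadjusted p of 0.00162 and q = 0.105. By hairpin it was -0.52 (SE 0.19, q = 0.229) for sh#1 and -0.58 (SE 0.19, q = 0.126) for sh#2. The value sat at the threshold, since q was below 0.1 in 7 of 22 other settings and ranged over them from 0.0305 to 0.370. Leaving out shCtrl replicate 5, sh1 replicate 2, sh2 replicate 2 or sh2 replicate 5 gave the call, and the values without 1 tumor ran from -0.63 to -0.44.

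WNT5B had 99, 50, 37, 97 and 48 counts in shCtrl tumors, 28, 61, 78, 75 and 102 in sh#1 and 78, 49, 71, 137 and 39 in sh#2. The normalized CPM were 79.4, 54.1, 42.2, 86.3 and 73.5 in shCtrl, 77.7, 69.0, 82.7, 81.6 and 103 in sh#1, and 110.9, 65.8, 68.0, 146.2 and 74.5 in sh#2. The groups overlapped, with the highest values in sh#2 tumors 1 and 4. The log2 fold change was 0.39 (SE 0.19, 95% interval 0.02 to 0.75, q = 0.386), and it was 0.30 (q = 0.644) for sh#1 and 0.47 (q = 0.343) for sh#2.

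The receptors and co-receptors of the tumors had values on both sides of shCtrl. FZD2 had 9 to 23 counts in shCtrl, 2 to 20 in sh#1 and 3 to 16 in sh#2 tumors, and its log2 fold change of -0.07 had a 95% interval of -0.59 to 0.45 (q = 0.946). LRP6, the co-receptor with the larger value, had means of 28.3 ± 9.99 normalized CPM in shCtrl, 33.0 ± 7.11 in sh#1 and 35.9 ± 7.74 in sh#2. Its log2 fold change was 0.37 (SE 0.19, q = 0.421). LRP5 was -0.11 (SE 0.27, q = 0.915), with 0.16 for sh#1 and -0.44 for sh#2, and the test between the hairpins gave 0.60 (95% interval -0.01 to 1.21, q = 0.528). WNT5A, with 4 to 28 counts in shCtrl, 3 to 20 in sh#1 and 4 to 15 in sh#2 tumors, had a log2 fold change of -0.06 (SE 0.35, q = 0.963).

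The other 4 members were below the filter in tumors. PORCN had 28 counts in all shCtrl tumors together, 25 in sh#1 and 17 in sh#2, and without the filter the difference of sh#1 against sh#2 was 0.49 on the log2 scale (SE 0.51, q = 0.736), where it was -0.98 in culture. FZD7 had 1 to 7 counts in every tumor. WNT7A had 2 counts over the shCtrl tumors, 1 over sh#1 and 4 over sh#2. FZD6 had 0 counts in all shCtrl tumors, 4 over the sh#1 and 6 over the sh#2 tumors, with at most 4 in a tumor. A count of 0 allows 2.40 to 7.23 CPM in a tumor.

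For the single hairpins, 0 of 6 members were called by edgeR in sh#1 against shCtrl (1.48% of all genes called), with 1 member at an unadjusted p under 0.05. In sh#2 against shCtrl 0 of 6 were called (2.68% of all genes), with 2 at an unadjusted p under 0.05. Between sh#1 and sh#2, 0 of 6 were called (1.19% of all genes), and no member had an unadjusted p under 0.05. DESeq2 called 0 in each, but between the hairpins it gave no q for WNT5A, FZD2 and LRP5, which could not be called there. The percentages are shares called by q and not at the unadjusted p. In the barcode list the shCtrl, sh#1 and sh#2 tumors were in 3 separate sets of reads, 1 for each group, called library mixes here. Mix and group therefore cannot be told apart in any tumor comparison.

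**Figure D2:**
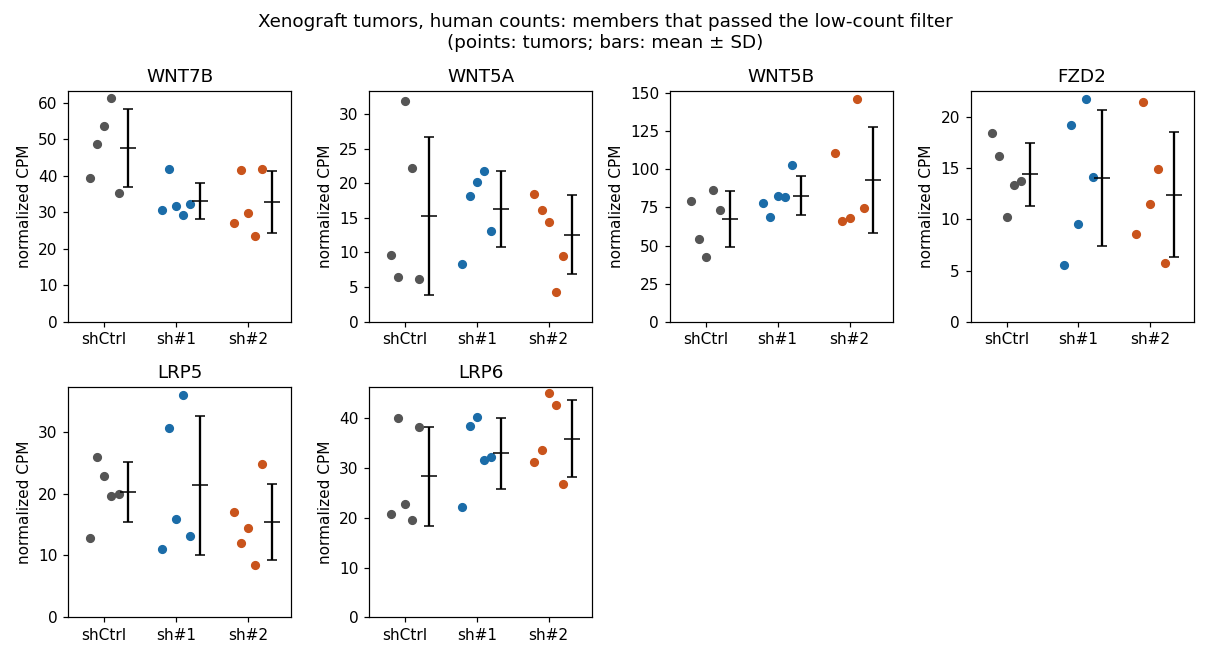
Normalized CPM of human counts (vertical axes, starting at 0) of the 6 members tested in xenograft tumors, by group on the horizontal axes. Points are tumors and bars are mean ± SD (n = 5). WNT7B values are lower in knockdown tumors with some overlap, and WNT5B reaches its highest values in sh#2 tumors.

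Counts of the mouse table were examined for the same genes, since the host also makes WNT ligands. Mouse Wnt7b had 1 count in all 15 tumors together. Mouse Wnt5a had 19 counts over shCtrl, 16 over sh#1 and 37 over sh#2 tumors, Fzd2 had 30, 13 and 25, and Lrp6 had 31, 32 and 36. The mouse counterparts of WNT7A and WNT5B were not analysed here. Host markers also varied: sh#1 tumor 1, with 30% mouse counts, reached 1046 CPM for the summed muscle markers and 156.9 for the adipocyte markers, above the maximum of the shCtrl tumors (117.9 and 3.53). The summed fibroblast markers had medians of 1348 CPM in shCtrl, 769.3 in sh#1 and 1878 in sh#2. The part of the host tissue in the values of the members was not tested beyond the fit with the mouse to human ratio as a covariate. In that fit WNT7B was at -0.58 (q = 0.173), WNT5B at 0.50 (q = 0.312) and WNT5A at 0.13, where it was -0.06 without the covariate, and 63 genes were called in place of 139.

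The change of each member was then compared between culture and tumors in 1 model over both tables (limma voom, 8321 genes, threshold 0.05), which called 9.57% of all genes. Of the 6 members, 2 were called, WNT5B and WNT7B. WNT5B was at -0.77 in culture and 0.38 in tumors on the log2 scale, a difference of 1.15 (SE 0.22, q = 0.000924). WNT7B was at -1.41 in culture and -0.56 in tumors, a difference of 0.85 (SE 0.24, q = 0.0233). Its values were thus below shCtrl in both systems and less so in tumors, where its change alone was not called (edgeR, q = 0.105). The call of the WNT7B difference was lost without culture shCtrl replicate 1 or without tumors shCtrl replicate 1, where the differences were 0.80 and 0.77 (q = 0.0641 and 0.0594). LRP6 had a difference of similar size, 0.85, with a larger error (SE 0.31, q = 0.0817). FZD2 (0.53, q = 0.314), WNT5A (0.21, q = 0.837) and LRP5 (0.14, q = 0.833) were not called. Culture and tumor libraries also differed in instrument and read processing, which cannot be told apart from the system in the levels themselves. The difference of changes was taken between changes within each table. Its tumor change still compares groups from separate library mixes, so mix and group cannot be told apart in it for any gene.

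**Figure D3:**
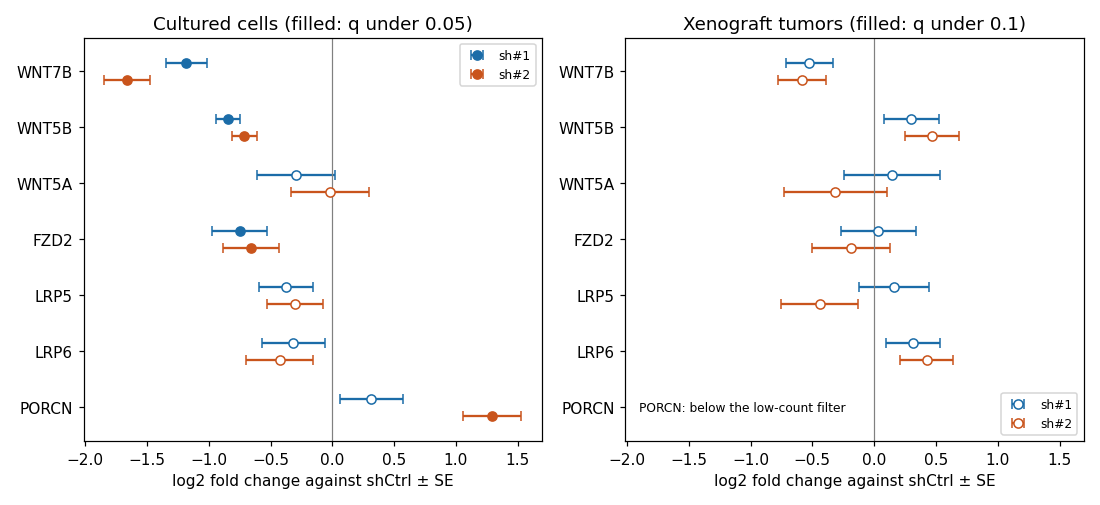
Log2 fold change ± SE of each hairpin against shCtrl (horizontal axes) for the members tested, in cultured cells on the left and tumors on the right. Filled points passed the threshold (q under 0.05 in culture, 0.1 in tumors). The hairpins share their shCtrl libraries. WNT5B lies at -0.84 and -0.71 in culture and at 0.30 and 0.47 in tumors.

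Other genes of the pathway were taken from 9 lists by role. Of 126 such gene symbols outside the members, 125 were found in the cultured cell table and 68 were tested in culture. Of the 68, 6 rose and 9 fell in CDH11 knockdown (8.82% and 13.2% of the tested, where 9.12% and 8.32% of all genes were called). Their median log2 fold change was -0.05. In sh#1 7 rose and 11 fell (10.3% and 16.2%, where 11.8% and 10.6% of all genes were called). These 18 calls became 9 without shCtrl replicate 3, 11 without sh1 replicate 1 and 9 by DESeq2. In sh#2 13 rose and 16 fell (19.1% and 23.5%, where 19.5% and 18.8% of all genes were called). Without shCtrl replicate 1, 2 or 3 in turn, 6, 8 and 6 pathway genes were called in place of 15. The lists share a few genes, which were counted once in these totals. The lists were chosen with results of these samples known, so their counts are a description.

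The list of nuclear factors had 5 of 15 genes lower and 1 higher with the hairpins pooled, where 8.32% of all genes were called lower and 9.12% higher. In sh#1 4 fell and none rose, where 10.6% of all genes were called lower and 11.8% higher. In sh#2 7 fell and 1 rose, where 18.8% were called lower and 19.5% higher. PYGO2, a co-activator of β-catenin, had 22.6 ± 3.23 normalized CPM in shCtrl, 11.2 ± 3.52 in sh#1 and 6.05 ± 0.668 in sh#2, a log2 fold change of -1.37 (SE 0.25, q = 0.00115). BCL9L, which joins Pygopus proteins to β-catenin, had 61.1 ± 9.87, 34.4 ± 6.75 and 14.3 ± 3.56, a log2 fold change of -1.30 (SE 0.34, q = 0.0271), and was lower in sh#2 than in sh#1 (q = 1.71e-06). PYGO1, the relative of PYGO2, was at -1.15 (q = 0.0124) from a mean of 13.8 counts per library, below the 20 required to be named, and is given to complete the list. The DNA-binding factor TCF7L2 (-0.41, q = 0.0389) and the co-repressor CTBP2 (-0.38, q = 0.0253) also fell, while TCF7L1, a TCF known mainly as a repressor, rose (0.47, q = 0.0486). The hairpins differed for TCF7L1 (q = 0.00117), which was at 0.20 in sh#1 without a call (q = 0.288) and at 0.70 in sh#2. PYGO2 and CTBP2 were also lower in sh#2 than in sh#1, by 0.86 (q = 0.0233) and 0.34 (q = 0.00312). TCF7L2 was at -0.29 in sh#1 without a call (q = 0.109) and at -0.56 in sh#2 (q = 0.000891). Its difference between the hairpins did not pass (q = 0.156).

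The planar polarity list had 3 of 12 genes lower and none higher with the hairpins pooled, where 8.32% of all genes were called lower and 9.12% higher. In sh#1 2 fell and none rose (16.7% lower, where 10.6% of all genes were called lower and 11.8% higher). In sh#2 3 fell and 3 rose (25% each, where 18.8% of all genes were called lower and 19.5% higher). The 3 that rose in sh#2, named after their values were seen, were the GTPase RHOA (0.29, q = 0.000159), its effector kinase ROCK1 (0.41, q = 0.00281) and PRICKLE2 (0.46, q = 0.0218). VANGL1, a core membrane protein of planar polarity, was at 24.4 ± 2.67 normalized CPM in shCtrl, 11.3 ± 1.15 in sh#1 and 11.3 ± 2.04 in sh#2, a log2 fold change of -1.11 (SE 0.17, q = 0.000251). PRICKLE1, its cytoplasmic partner, was at -0.90 (q = 0.0198), with -0.53 in sh#1 (q = 0.0593) and -1.46 in sh#2 (q = 3.04e-06). The scaffold SCRIB was at -0.66 (q = 0.0169), with -0.38 in sh#1 and -1.04 in sh#2. The hairpins differed for both (q = 0.00641 for PRICKLE1 and 0.00138 for SCRIB). Of 5 other receptors tested, RYK, a receptor for WNT5A-type ligands, fell in CDH11 knockdown with the hairpins pooled (-0.40, q = 0.0391). By hairpin RYK was at -0.36 in sh#1, which did not pass (q = 0.0507), and at -0.46 in sh#2 (q = 0.00838). Of the other receptors, named after their values were seen, PTK7 fell in sh#1 (-1.25, q = 0.00178) from a mean of 18.4 counts. PTK7 was at -0.16 in sh#2, and the hairpins differed (q = 0.00928). FZD1 fell in sh#2 (-1.23, q = 0.0252) from a mean of 9.22 counts and was at -0.78 in sh#1 (q = 0.168).

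Of 4 secreted inhibitors, DKK1, which blocks LRP5 and LRP6, rose from 4.58 ± 1.34 normalized CPM in shCtrl to 10.6 ± 1.90 in sh#1 and 12.6 ± 4.24 in sh#2, a log2 fold change of 1.32 (SE 0.29, q = 0.00502). In sh#1 1 inhibitor rose and 1 fell (all genes: 11.8% higher, 10.6% lower), and in sh#2 1 rose and none fell (19.5% and 18.8%). The inhibitor that fell was DKK3, named after its values were seen (-0.83, q = 0.00936). DKK3 was at -0.24 in sh#2 (q = 0.446). DKK1 is also 1 of 7 common target genes tested, of 16 listed. AXIN2, NKD1, LGR5, RNF43, NOTUM and SP5 were among those not tested. Of the 7, 2 rose, DKK1 among them, and none fell with the hairpins pooled (all genes: 9.12% higher, 8.32% lower). The other was MYC, a growth-promoting transcription factor, at 58.0 ± 7.54 in shCtrl, 123.1 ± 11.7 in sh#1 and 112.3 ± 6.89 in sh#2 (1.02, SE 0.11, q = 8.63e-06). In sh#1 3 of the 7 rose and 1 fell, where 11.8% of all genes were called higher and 10.6% lower. The counts were the same in sh#2, where 19.5% and 18.8% of all genes were called. CCND1, the cell cycle target gene, was at 0.16 with the hairpins pooled (q = 0.481), rose in sh#1 (0.38, q = 3.94e-05) and was at -0.12 in sh#2 (q = 0.227), and the hairpins differed (0.49, q = 3.75e-07). CD44, a cell surface receptor for hyaluronan named here after its values were seen, fell in sh#1 (-0.18, q = 0.0312) and rose in sh#2 (0.43, q = 9.12e-08). Among 19 cytoplasmic transducers 2 rose and none fell with the hairpins pooled (all genes: 9.12% higher, 8.32% lower). CSNK1A1, a kinase of the β-catenin destruction complex, rose (0.43, q = 0.00160). NKD2, an inhibitor of Dishevelled, rose from a mean of 19.8 counts (1.17, q = 0.00834), also below the 20 required. In sh#1 2 rose and 1 fell (all genes: 11.8% and 10.6%), and in sh#2 4 rose and 2 fell (19.5% and 18.8%). The genes named next were chosen after their values were seen. GSK3B fell in sh#1 (-0.39, q = 0.0259). AXIN1 (-0.77, q = 0.0188) and CSNK1G1 (-0.53, q = 0.00793) fell in sh#2, and CTNNBIP1 rose (0.77, q = 1.18e-08). Of 8 secretion genes 1 rose and none fell with the hairpins pooled, VPS35, a retromer subunit that recycles the WNT carrier (0.29, q = 0.0293). In each hairpin 2 rose and 1 fell, where the shares of all genes were those given for the transducers. TMED2 fell in sh#1 (-0.27, q = 0.0479) and in sh#2 (-0.30, q = 0.0219). Besides VPS35, VPS29 rose in sh#1 (0.34, q = 0.00896) and the carrier WLS in sh#2 (0.53, q = 0.000988). TMED2, VPS29 and WLS were named after their values were seen. Of 15 other WNT ligands 1 was tested, WNT10B, with a mean of 15.4 counts, and it was not called (0.04, q = 0.951). Of 9 receptor turnover genes 1 was tested, ZNRF3, a ubiquitin ligase that removes frizzled receptors and also a target gene. ZNRF3, with a mean of 16.6 counts, was at -0.70 with the hairpins pooled (q = 0.149). It fell in sh#2 (-1.38, q = 0.00130) and was at -0.29 in sh#1 (q = 0.529), and the hairpins differed (1.09, q = 0.0216).

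**Figure D4:**
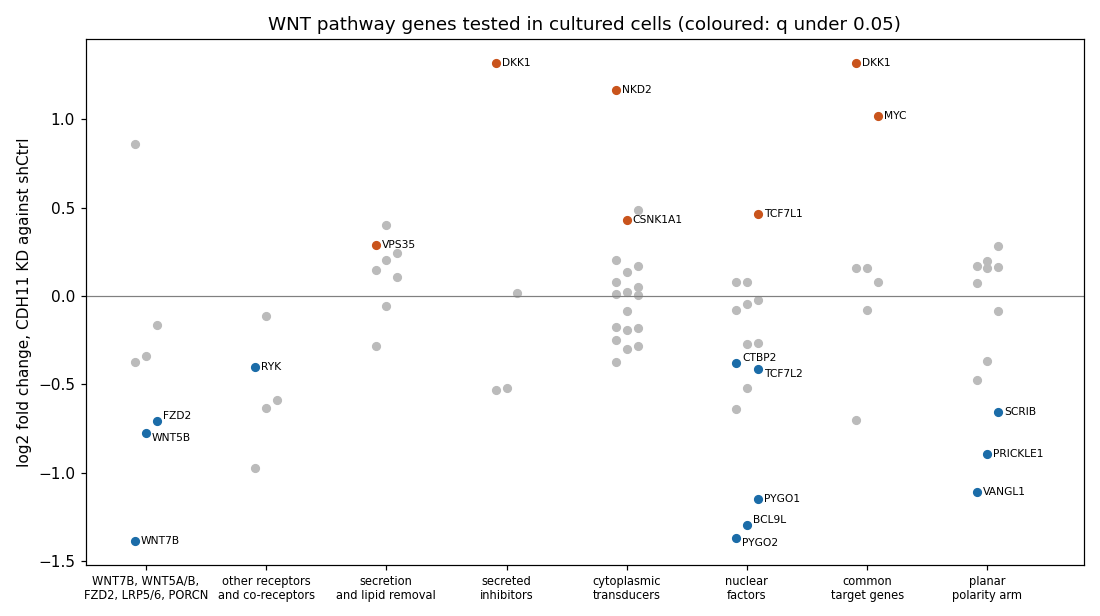
Log2 fold change in CDH11 knockdown against shCtrl (vertical axis) of the members and of the pathway genes tested in cultured cells, in columns by list (lists with 1 gene tested are not drawn). Each point is a gene, blue for q under 0.05 and lower, orange for q under 0.05 and higher, grey for the rest, and DKK1 appears in both of its lists. The lower calls lie among the members, nuclear factors, polarity genes and RYK.

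In tumors 64 pathway genes were tested and 2 were called, both lower (3.12% of the tested, where 1.51% of all genes were called). BCL9L had 41.8 ± 15.3 normalized CPM in shCtrl, 24.0 ± 5.95 in sh#1 and 25.6 ± 7.03 in sh#2 tumors, a log2 fold change of -0.69 (SE 0.19, q = 0.0806). CCND1 had 901.7 ± 142.5, 599.2 ± 98.4 and 713.9 ± 130 (-0.45, SE 0.12, q = 0.0631). By hairpin CCND1 passed in sh#1 (-0.58, q = 0.0148) and not in sh#2 (-0.34, q = 0.204). BCL9L passed in neither hairpin (q = 0.125 in sh#1 and 0.166 in sh#2). In sh#1 1 of the 64 rose and 1 fell (3.12% called, where 1.48% of all genes were called). In sh#2 0 were called (2.68% of all genes). With the hairpins pooled, no pathway gene was called with the mouse to human ratio as a covariate, or without shCtrl replicate 1, shCtrl replicate 2 or sh1 replicate 5. The pooled count was 1 with at least 10 counts in every library, with the replicate block or without any 1 of several other tumors. It was 4 with no low-count filter. The difference between the systems was called for 9 of 62 pathway genes tested in both (14.5%, where 9.57% of all genes were called). The change in tumors minus that in culture was above 0 for 5 of them and below 0 for 4. The count was 3 without culture shCtrl replicate 1, and 5 without culture shCtrl replicate 2, culture shCtrl replicate 3 or tumors shCtrl replicate 2, and with at least 10 counts in every library. The 9 genes included VANGL1 (1.31, q = 0.000720), PYGO2 (1.34, q = 0.00887), SCRIB (0.67, q = 0.0479), MYC (-0.85, q = 0.0143), CSNK1A1 (-0.45, q = 0.0282) and CCND1 (-0.62, q = 0.0408). For the first 5 the tumor values were close to shCtrl, from -0.07 to 0.22. BCL9L was called lower in both systems with the hairpins pooled, and its difference between the systems did not pass the threshold (0.76, SE 0.35, q = 0.168). PRICKLE1 was at -0.69 in tumors without a call (difference 0.25, q = 0.745). DKK1 was at 0.41 in tumors (difference q = 0.269), where its hairpins lay on either side of shCtrl. Its means were 10.33 ± 6.34 normalized CPM in shCtrl, 18.15 ± 4.65 in sh#1 and 8.44 ± 3.60 in sh#2 tumors, from a mean of 10.3 counts. DKK1 was the 1 pathway gene of 64 called between the hairpins in tumors, higher in sh#1 (1.56%, where 1.19% of all genes were called). This call was lost by DESeq2 and without any single sh#1 tumor.

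The genes whose levels were most like WNT7B were taken by Pearson's r of log2 normalized CPM, as a description over libraries that share groups. Over the 9 cultured libraries and 8110 genes these were ANKRD10 (r = 0.992), E2F3 (0.983), ZMAT3 (0.981), SPCS3 (0.979) and UNG (0.973). WNT5B had r = 0.842, FZD2 0.728 and PORCN -0.730 with WNT7B. Over the 15 tumors and 6445 genes they were MRPS33 (0.919), SNRPB2 (0.892), MED19 (0.850), LINC00958 (0.804) and COA4 (0.80), and WNT5B was at -0.672. No gene was in both sets of 5.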

How the data were processed

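RNA-seq of 9 cultured libraries and 15 tumors was analysed. The values deposited by the authors are raw read counts for each gene. According to the methods of the study, cultured reads were trimmed in CLC Genomics Workbench and mapped to hg38 with RaNAseq, and tumor reads were trimmed with trim galore and mapped to hg38 with HISAT2. The counting tool, the annotation, strand use, molecular identifiers and how human and mouse reads were separated are not given in the sources used here. The labels of the tumors name a methods template that may mean counting near the 3′ end, so levels were compared between genes only in culture. In culture, a few genes were not analysed here.

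Counts were fitted with edgeR 4.0.16 in R 4.3.3 (TMM, filterByExpr, robust quasi-likelihood test, Benjamini-Hochberg adjustment over all genes tested). CDH11 knockdown was both hairpins against shCtrl with q thresholds of 0.05 in culture and 0.1 in tumors, as in the study, and fits with 3 groups gave the hairpins. Culture and tumors were compared with limma 3.58.1 (voom with quality weights, an interaction term, genes tested in both tables). Intervals are 95% from the normal distribution. Scripts were tested on simulated counts. No pair of replicates agreed within sampling noise (chi-square test), and each library counted as 1 replicate.

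The 10 members and the pathway lists (other WNT ligands, other receptors and co-receptors, secretion and lipid removal, secreted inhibitors, receptor turnover and R-spondins, cytoplasmic transducers, nuclear factors, common target genes, planar polarity arm) were chosen with earlier results of these data known. Named by rule besides the members were listed genes called in that system with the hairpins pooled, if they averaged 20 counts or more, at most 15 per system. The 5 genes with the highest Pearson's r with WNT7B were also named. Other listed genes were named outside this rule, after their values were seen or to complete a list, and some averaged below 20 counts. Host markers were short lists for mouse fibroblasts, endothelium, macrophages, keratinocytes, adipocytes and muscle. Endothelial markers summed to medians of 27.3, 24.0 and 40.8 CPM in shCtrl, sh#1 and sh#2 tumors and macrophage markers to 465.2, 286.3 and 283.9, and the 1 keratinocyte marker listed was at or near 0. Cell identity was checked with human epithelial and urothelial markers and human mesenchymal markers.

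Alternatives were DESeq2 1.42.0 (edgeR's interaction test for culture against tumors), RLE size factors, leaving out the low-count filter or requiring 10 counts in every library, leaving out single replicates, a block for the replicate number, a fit with 3 groups, and in tumors the mouse to human ratio of counts as a covariate.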

Additional observations from a re-analysis of the deposited data

Results flagged for a closer look

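WNT7B in sh#1 tumors had 1 tumor apart from the others. Tumor 2 was at 41.8 normalized CPM, and the other 4 were between 29.4 and 32.3. Of 18 groups of 5 tumors examined over the 6 members, this was the only one with a gap above Dixon's 95% critical value, and chance flags about 1 in 20 groups.

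The CDH11 knockdown change of WNT5B differed between culture and tumors by 1.15 on the log2 scale (limma voom, SE 0.22, q = 0.000924), with all cultured knockdown libraries below shCtrl. That of WNT7B differed by 0.85 (SE 0.24, q = 0.0233). Both were singled out because the test of the difference itself passed its threshold. In the tumor change of both, library mix and group cannot be told apart.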

How the results depend on the processing

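In culture WNT7B and WNT5B kept their call and direction in all 15 alternatives for CDH11 knockdown, and in all 14 for each hairpin. WNT7B lay between -1.44 and -1.27 when single replicates were left out. The number of members called was 2 to 4 for knockdown, 2 to 3 for sh#1, 3 to 5 for sh#2 and 1 to 2 for sh#1 against sh#2 when single replicates were left out. FZD2 lost its call for sh#1 (-0.75) and for sh#2 (-0.66) by DESeq2. PORCN passed for knockdown in 5 of 15 alternatives, and in all 14 for sh#2 and for sh#1 against sh#2. LRP6 in sh#2 passed without sh2 replicate 1 (-0.88, q = 0.0161). In tumors, 1 member (WNT7B) was called with no low-count filter (-0.58), with at least 10 counts in every library (-0.56) and with 3 groups (-0.55), and 0 to 1 when single tumors were left out (WNT7B -0.63 to -0.44). In sh#2 tumors 1 member was called with at least 10 counts in every library, and 0 to 1 when tumors were left out. The members called between culture and tumors numbered 1 to 3 when libraries were left out, and WNT5B was called in all 27 alternatives. WNT5A in tumors reversed to 0.13 with the mouse ratio as a covariate, and the cause was not tested.

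Leaving out single libraries reversed the sign of values without a call. In culture these ranged from -0.40 to 0.14 for WNT5A in knockdown, between -0.64 and 0.009 for sh#1 and -0.26 and 0.28 for sh#2. Between the hairpins they ranged from -0.24 to 0.057 for FZD2 and from -0.12 to 0.56 for LRP6. In tumors they ranged for knockdown from -0.26 to 0.34 for WNT5A, from -0.18 to 0.043 for FZD2 and from -0.29 to 0.0047 for LRP5. For sh#1 tumors FZD2 ranged from -0.16 to 0.17, LRP5 from -0.11 to 0.32 and WNT5A from -0.049 to 0.55, and for sh#2 tumors WNT5A from -0.50 to 0.083. Between the hairpins in tumors WNT7B ranged from -0.039 to 0.17 and WNT5B from -0.28 to 0.079. The difference between the systems ranged from -0.050 to 0.27 for LRP5 and from -0.042 to 0.51 for WNT5A.

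Over all genes, 1719 calls for knockdown in culture became 3291 with 3 groups and 882 to 974 without a shCtrl replicate. DESeq2 called 1346 in place of 2209 for sh#1 and 1533 in place of 2431 between the hairpins. In tumors 139 calls for knockdown became 276 with no filter, 227 with 3 groups, 63 with the mouse ratio and 48 to 399 without 1 tumor. For sh#1 tumors 136 became 243 with no filter, 89 with at least 10 counts and 69 to 287 without 1 tumor, for sh#2 246 became 126 to 552 without 1 tumor, and between the hairpins 109 became 173, 63 and 44 to 144. Between the systems 796 became 460 to 955 without 1 library. The 15 pathway genes called in culture became 9 with the replicate block and 27 with 3 groups, and DESeq2 called 9 in place of 18 for sh#1 and 11 in place of 22 between the hairpins. For the difference between the systems 9 became 5 with at least 10 counts and 3 to 10 without 1 library. In tumors the 0 to 2 pathway genes called per comparison became 0 to 4 with the other filters, and 0 to 6 without 1 tumor.

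Samples with the same replicate number did not deviate together (r = -0.01 to 0.06 over 9 pairs in culture and -0.09 to 0.12 over 15 pairs in tumors), so the numbers were not taken to pair them. With the replicate number as a block, WNT7B was at -1.39 in culture and -0.57 in tumors, and the numbers of members called were 3, 3, 4 and 1 for the comparisons in culture and 0 for each in tumors. Low counts limit FZD7, FZD6 and WNT7A in both systems and PORCN in tumors.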
